A study of Mus musculus with 6 samples.

Results

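Methionine is read by cytoplasmic tRNAs of separate kinds that share the anticodon CAT (CAU in the RNA). The initiator tRNA (tRNA-iMet) is carried by the factor eIF2 to the small ribosomal subunit and reads the start codon, while the elongator tRNA (tRNA-Met) is carried by eEF1A and reads every methionine codon inside the message. Another tRNA, encoded by the mitochondrial gene mt-Tm, does both tasks in mitochondria. Stressed cells cut tRNAs into fragments, and whole tRNAs and fragments are both known cargo of extracellular vesicles. The rows were chosen by name alone, as all rows that begin with tRNA-iMet- or tRNA-Met-. This gave 19 genes of 471 tRNA genes and of 16310 RNAs in all, with 10 initiator genes in 4 isodecoders and 9 elongator genes in 7 isodecoders. An isodecoder, the number after the anticodon in a gene's name, groups gene copies that encode the same mature tRNA, so reads inside the mature tRNA cannot tell copies of 1 isodecoder apart.

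The small RNA libraries came from exosomes of cultured mouse dorsal skin cells, with 3 libraries of epidermal stem cell exosomes (ESC) and 3 of dermal fibroblast exosomes (Fb). The ESC were from C57BL/6 mice of 3 weeks, were picked by rapid adhesion to collagen IV and were grown in serum-free keratinocyte medium. The Fb were from db/db mice, which lack a working leptin receptor and become obese and diabetic, at 14 weeks, and were grown with 10% fetal bovine serum before 2 days without serum, although their strain label also reads C57BL/6. No treatment was applied to either, the passage label was the same for all libraries, and cell type, mouse strain, age and medium cannot be told apart as sources of a difference. The labels call the libraries biological replicates but tie none to an animal, so the spread that p-values measure is that among these libraries and may be technical. Fewer exosomes that carry an RNA and less of it in each cannot be told apart in such bulk libraries.

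The ESC libraries held 9894485 to 11149046 assigned reads and the Fb libraries 6914504 to 8691350, and tRNA genes held 78.7% to 79.9% and 80.5% to 89.6% of them. Glycine and glutamate tRNAs took 99.1% to 99.4% of tRNA reads in ESC and 81.3% to 82.6% in Fb libraries, so the methionine tRNAs were minor tRNAs in both. Fb replicate 1 stood somewhat apart, with correlations of log2 values across RNAs of 0.564 and 0.688 to Fb replicates 2 and 3, which correlated at 0.866. Epithelial marker miRNAs (7 fixed names) summed to 5.99% to 7.46% of mature miRNA reads in ESC and 0.746% to 1.42% in Fb libraries, and 5 mesenchymal ones to 0.0128% to 0.0209% and 10.6% to 18.1%. The mesenchymal miR-199a-3p overlapped between the groups, with 0, 107 and 76 reads in ESC and 4791, 0.676 and 2049 in Fb replicates 1 to 3. Each other mesenchymal miRNA had more reads in every Fb library. Of 6 blood and serum miRNAs, miR-142a-3p had 0 reads in every library and the list summed to 0.000866% to 0.0309% of mature miRNA reads in ESC and 0.0410% to 1.14% in Fb libraries. Most of that sum was miR-486a-5p except in ESC replicate 1, with 0.0604, 142 and 456 reads in ESC and 209, 68.5 and 1343 in Fb replicates 1 to 3, which overlap. The liver miRNA miR-122-5p was higher in ESC libraries, at 11, 9 and 10 reads against 0.286, 1 and 0. The part of these miRNAs' sources in the results below was not tested.

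The mature sequence of the mitochondrial methionine tRNA is shown because it reads the same codon as the genes studied here yet moved the other way. It lies at chrM:3845-3913 (GRCm38, plus strand) and was copied from GENCODE M21, 5′ to 3′, without the CCA end that is added after transcription. Capitals mark the anticodon, found as a CAT in a loop of 7 bases closed by 5 base pairs.
mt-Tm: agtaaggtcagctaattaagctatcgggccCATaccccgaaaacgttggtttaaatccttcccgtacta

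None of the 19 row names matched a RefSeq symbol (0 matched), so the rows are given without positions. RefSeq (GRCm38.p6) lists 16 nuclear tRNA genes for methionine under names of its own. They are 72 to 73 bases long, and 11 of them lie on chromosome 13 between bases 21167604 and 23530419. With lengths this close, a ratio of initiator to elongator reads is nearly the same per base.

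Initiator tRNA reads were scarce in ESC exosomes and far more frequent in Fb exosomes. Summed over its 10 genes, the initiator had 6.40, 48.8 and 77.4 reads in ESC replicates 1 to 3, or 0.647 (exact 95% binomial interval 0.223 to 1.32), 4.38 (3.25 to 5.81) and 7.46 (5.86 to 9.28) reads per-million assigned reads (RPM). In Fb replicates 1 to 3 it had 592, 8344 and 1241 reads, or 74.1 (68.2 to 80.3), 960 (940 to 981) and 179 (170 to 190) RPM. The lowest Fb library was thus far above the highest ESC library, and Fb replicate 2 was the highest of all. The means were 4.16 ± 3.41 (SD, n = 3) RPM in ESC and 405 ± 484 (SD, n = 3) RPM in Fb exosomes, a ratio of 97.2. On the log2 scale that ratio was 6.60, and 4.93 without Fb replicate 2. The exact two-sided permutation test gave p = 0.1, the smallest that 3 against 3 libraries allow.

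The elongator differed by less and was steadier in ESC exosomes. Summed over its 9 genes, it had 76.0, 89.7 and 94.9 reads in ESC replicates 1 to 3, or 7.68 (exact 95% binomial interval 6.05 to 9.61), 8.05 (6.49 to 9.92) and 9.15 (7.41 to 11.2) RPM. In Fb replicates 1 to 3 it had 151, 914 and 485 reads, or 18.9 (15.9975 to 22.2), 105 (98.5 to 112) and 70.1 (64.0 to 76.7) RPM. The ESC libraries lay within one another's counting intervals, and the Fb libraries were all higher and more spread. The means were 8.29 ± 0.762 and 64.7 ± 43.4 RPM (SD, n = 3 each), a ratio of 7.80 (exact two-sided permutation p = 0.1). The reads carry no molecular identifiers, so all intervals cover counting error only.

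Both sums were higher in every Fb library than in every ESC library. On the same scale this held for 6.60% of the 2864 rows of the table with tRNA genes summed by amino acid that had enough reads to be tested, but for 70.8% of its 24 tRNA sums (17 of 24). Separation of the groups was therefore common among tRNAs and not particular to methionine. The 24 sums include those named Sup, with 0.2 reads in ESC replicate 1 and 0 elsewhere, and Und, with 0 reads, which could not separate.

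**Figure D1:**
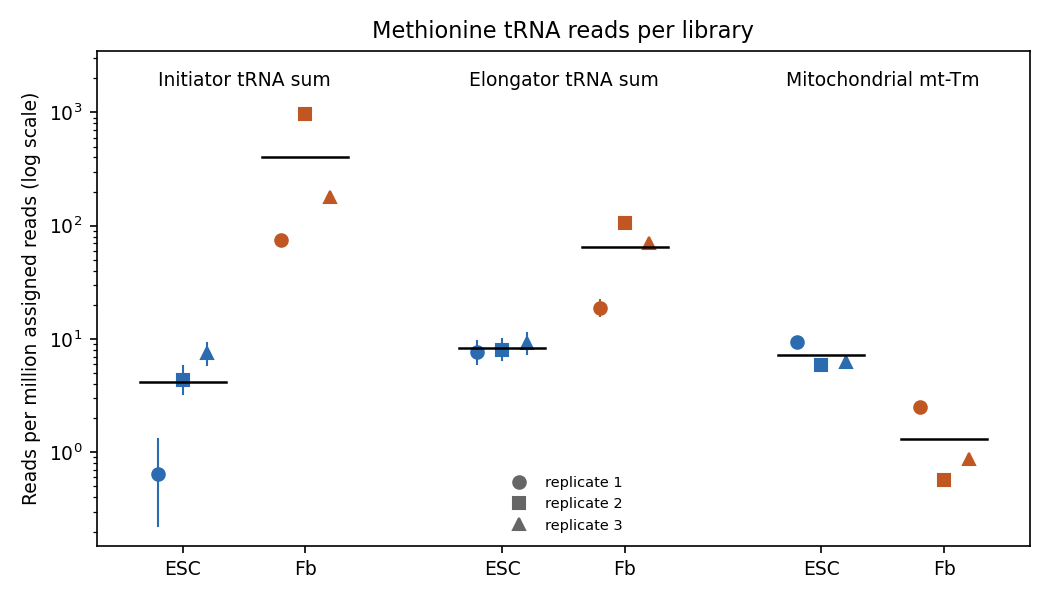
RPM (log axis) of the initiator sum, the elongator sum and mitochondrial mt-Tm in each library, with exact 95% binomial intervals for the sums (thin lines) and group means (black bars). Initiator reads were 0.647 to 7.46 in ESC and 74.1 to 960 in Fb libraries, elongator reads 7.68 to 9.15 and 18.9 to 105, and mt-Tm was higher in ESC libraries.

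The balance between the kinds turned over. In ESC exosomes elongator reads outnumbered initiator reads, with 0.0842, 0.544 and 0.815 initiator reads per elongator read in replicates 1 to 3. In Fb exosomes the initiator was the more frequent, with ratios of 3.92, 9.13 and 2.56. As a share of cytoplasmic methionine tRNA reads the initiator held 7.76% (exact 95% binomial interval 2.73 to 15.2), 35.2% (27.3 to 43.8) and 44.9% (37.2 to 52.5) in ESC and 79.7% (76.6 to 82.5), 90.1% (89.5 to 90.7) and 71.9% (69.7 to 74.0) in Fb replicates 1 to 3. The interval of ESC replicate 3 included equal shares, and the other intervals did not.

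This ratio is taken within a library and needs no scaling between libraries. The mean log2 ratio of initiator to elongator was -1.58 ± 1.75 in ESC and 2.17 ± 0.93 in Fb exosomes (SD, n = 3 each). The difference of 3.75, a 13.5-fold shift, had an exact two-sided permutation p = 0.1 with the groups not overlapping. It was 2.76 without ESC replicate 1, the library with only 6.40 initiator reads, and at most 4.40 when another library was left out. With the isodecoder of most reads over all libraries in place of each sum, tRNA-iMet-CAT-1 and tRNA-Met-CAT-1, it was 5.61. The first was picked mostly by its Fb reads, and the ESC replicate 2 ratio was then 0.0430, so 5.61 is no independent check. The shares of each kind in all reads and in tRNA reads and the ratio of the sums made a family of 5 tests, each at exact permutation p = 0.1 before and after adjustment. Tests on other denominators are given unadjusted.

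**Figure D2:**
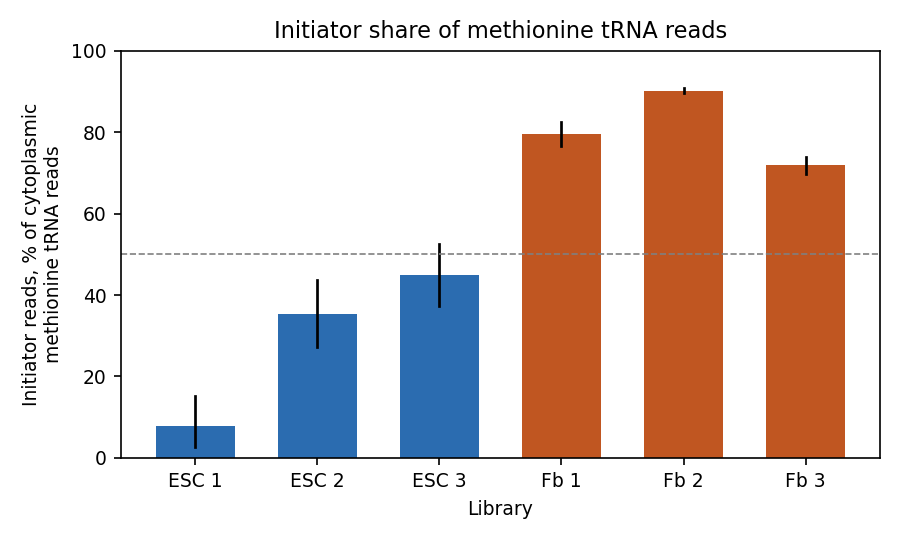
Initiator reads as a percent of all cytoplasmic methionine tRNA reads in each library, with exact 95% binomial intervals. The dashed line marks equal shares, and the bars run from 7.76% to 44.9% in ESC and from 71.9% to 90.1% in Fb libraries.

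Each kind was also read against the rest of the tRNA pool. In RPM of tRNA reads the initiator averaged 5.26 ± 4.34 in ESC and 496 ± 606 in Fb exosomes, and the elongator 10.5 ± 1.03 and 78.2 ± 54.9 (SD, n = 3 each, exact two-sided permutation p = 0.1 for both). Since glycine and glutamate tRNAs filled nearly all of the ESC tRNA reads, the scale was changed to the tRNA reads that remain without them. There the elongator was lower in every Fb library, with 1557, 1108 and 2001 RPM of these reads in ESC and 113, 752 and 454 in Fb replicates 1 to 3 (exact two-sided permutation p = 0.1). The initiator overlapped between the groups, with 131, 603 and 1632 in ESC and 442, 6867 and 1163 in Fb replicates (exact two-sided permutation p = 0.6).

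Valine tRNAs held 49.6% to 59.9% of these remaining reads in ESC and 67.2% to 90.3% in Fb libraries, so they were set aside as well, a step added after the data were seen. The initiator was then higher in every Fb library, at 260, 1502 and 3737 RPM in ESC and 4580, 20952 and 4948 in Fb replicates. The elongator was still lower in every Fb library, at 3089, 2759 and 4583 in ESC and 1169, 2294 and 1933 in Fb replicates (exact two-sided permutation p = 0.1 for both). The direction of the elongator thus depended on the scale. Of 22 tRNA sums other than glycine and glutamate, 12 were lower and 1 was higher in every Fb library when measured against these remaining reads. These 22 include the nearly empty sums Sup and Und and are not the same set as the 22 sums fitted below.

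**Figure D3:**
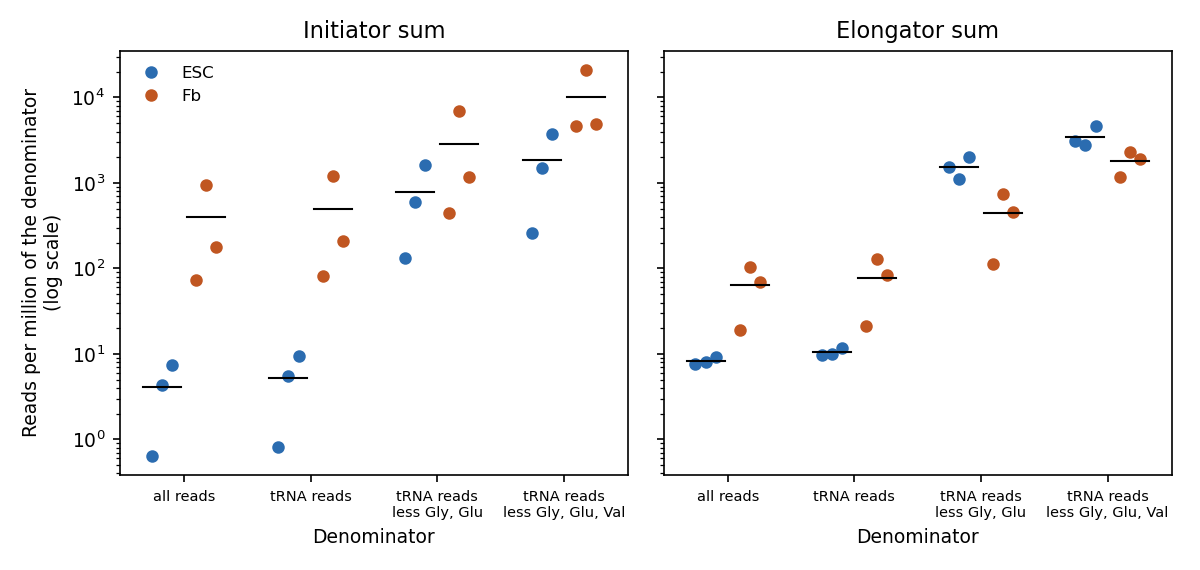
RPM of each denominator (log axis) for the initiator sum (left) and the elongator sum (right), with ESC libraries in blue, Fb libraries in orange and group means as black bars. The initiator means were higher in Fb on each denominator shown, while the elongator was higher in Fb per all reads and per tRNA reads and lower in Fb once glycine and glutamate tRNAs were left out.

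A count model over all RNAs gave the same order of the kinds. With tRNA genes summed by amino acid, the initiator had a log2 fold change (Fb over ESC) of 9.28 (SE 2.16) and the elongator one of 5.38 (SE 1.39), and both passed as higher in Fb exosomes (edgeR quasi-likelihood test, Benjamini-Hochberg adjusted p = 0.0246 and 0.0353). In that fit 6.35% of the 2864 rows tested were called higher in Fb exosomes (182 rows), against 13 of the 22 tRNA sums, and all 22 tRNA sums had positive log2 fold changes. Their median was 5.41, so the elongator, ranked 12 of 22, sat at the middle of the tRNAs, while the initiator ranked first. The tryptophan, threonine and arginine tRNA sums followed at 8.41 (SE 1.76), 8.40 (SE 1.75) and 8.28 (SE 1.74). These lay within the SE of the initiator, so its first place is not resolved. The initiator passed the filter on low counts through its Fb reads.

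These folds are relative to the scaling. With TMM factors the median log2 fold change of all rows was -0.07, and with library totals alone it was -0.83, where the initiator had 6.60 (edgeR adjusted p = 0.00202) and the elongator 2.96 (edgeR adjusted p = 0.0456). Relative to that median the log2 fold changes were 9.35 and 7.43 for the initiator and 5.45 and 3.79 for the elongator.

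Most of these calls were lost when a library was left out. The initiator was no longer called when ESC replicate 1, 2, 3 or Fb replicate 3 was left out (in that order, edgeR adjusted p = 0.113, 0.121, 0.129 and 0.0724), and without Fb replicate 2 its log2 fold change was 6.39 (edgeR adjusted p = 0.0318). The elongator was no longer called when any single library but Fb replicate 1 was left out (ESC libraries first, edgeR adjusted p = 0.170, 0.176, 0.169, 0.0685 and 0.104), with a log2 fold change of 3.99 without Fb replicate 2. Both sums kept a positive sign each time. Without Fb replicate 1 both were called, with log2 fold changes of 9.87 and 5.96 (edgeR adjusted p = 2.95e-04 and 1.04e-04).

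**Figure D4:**
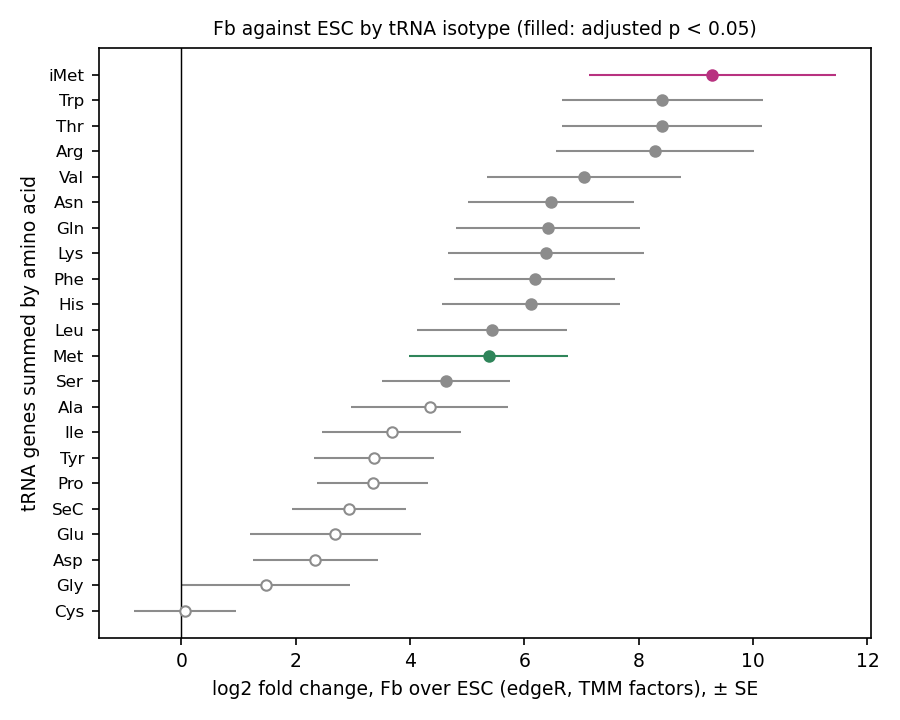
The log2 fold change (Fb over ESC, edgeR with TMM factors) of tRNA genes summed by amino acid, with SE as bars and filled points for sums at an adjusted p under 0.05. The initiator (iMet, 9.28) ranks first, with Trp, Thr and Arg inside its SE bar, and the elongator (Met, 5.38) ranks 12 of 22.

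Nearly all initiator reads of Fb exosomes were assigned to isodecoder tRNA-iMet-CAT-1, the one with 7 gene copies. It had 5.6, 3.70 and 77.3 reads in ESC and 589, 8320 and 1241 reads in Fb replicates 1 to 3. It held 99.5%, 99.7% and 100.0% of initiator reads in the Fb libraries. In ESC exosomes its share was 87.5%, 7.57% and 100.0%, since ESC replicate 2 had 44.8 of its 48.8 initiator reads on isodecoder tRNA-iMet-CAT-3. That isodecoder had at most 1.45 reads in any other library. Isodecoder tRNA-iMet-CAT-2 had 24.0 reads in Fb replicate 2 and at most 1.68 elsewhere, and tRNA-iMet-CAT-4 had 0.0714 reads in ESC replicate 2 and 0 in the others.

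A library with fewer than 3 reads of a row cannot be told from one with none at this depth. That floor was 0.269 to 0.303 RPM in ESC and 0.345 to 0.434 in Fb libraries. No fold is given for isodecoders 2, 3 and 4 of the initiator, which were under the floor in at least one whole group.

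Within the 7 copies of tRNA-iMet-CAT-1 the reads landed on a different gene from library to library. In Fb replicate 1 the copy tRNA-iMet-CAT-1-2 had 568 of the 589 reads. In Fb replicate 2 the copy tRNA-iMet-CAT-1-5 had 7676 reads and tRNA-iMet-CAT-1-1 had 639. In Fb replicate 3 the copies tRNA-iMet-CAT-1-1 and tRNA-iMet-CAT-1-3 had 1018 and 223 reads. In ESC replicate 3 the copy tRNA-iMet-CAT-1-3 had 77.2 of 77.3 reads. The leading copy was thus a different one in each Fb library.

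Most of the remaining copies shared a common value within a library, to within 1e-06 reads. In ESC replicate 1 all 7 copies were at 0.8 reads, in ESC replicate 2 there were 5 at 0.529, and in ESC replicate 3 there were 6 at 0.0256. In Fb replicates 1, 2 and 3 there were 5 copies at 3.13, 4 at 0.0375 and 5 at 0.0383 reads. The copy tRNA-iMet-CAT-1-3 stood off that value in Fb replicates 1 and 2, at 5.13 and 4.04 reads. Copies of 1 isodecoder share their mature sequence, and the rule by which the authors divided such reads is not given in the sources used here, so values of single copies are uncertain. No initiator copy passed the count filter of the single-gene fit. Of the 19 genes, 7 had a mean of at least 10 reads in a group (5 initiator and 2 elongator genes). The other 12 had at most 24.0 reads in any library, and 6 genes never reached 3 reads.

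**Figure D5:**
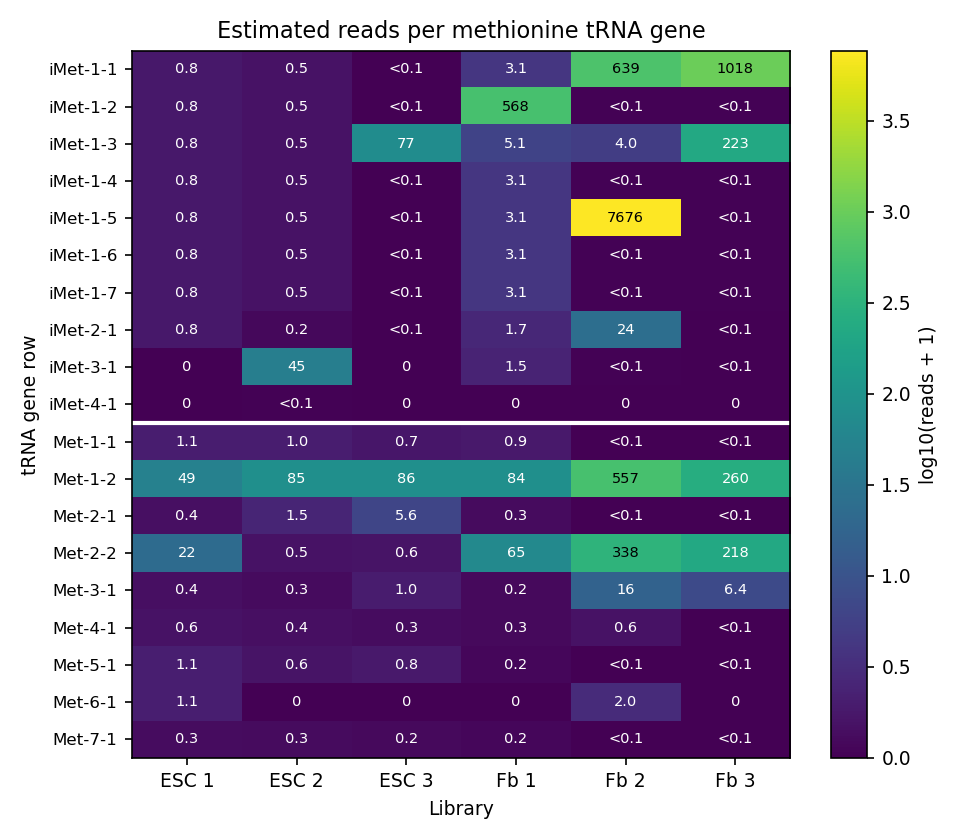
Estimated reads of each of the 10 initiator and 9 elongator gene rows in each library, with colour on a log10(reads + 1) scale. The leading initiator row changes between Fb libraries (568, 7676 and 1018 reads on separate copies), whereas Met-1-2 leads the elongator rows in each library.

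The elongator reads were spread in a steadier way. The gene tRNA-Met-CAT-1-2 led in each library, with 49.3, 85.0 and 85.6 reads in ESC and 83.8, 557 and 260 reads in Fb replicates 1 to 3. The gene tRNA-Met-CAT-2-2 had 21.7, 0.530 and 0.591 reads in ESC and 65.4, 338 and 218 in Fb replicates. Together these genes held 90.8% to 98.7% of elongator reads in each library. The first was at about the same read number in Fb replicate 1 as in ESC replicates 2 and 3, which were deeper libraries. In RPM it had 4.99, 7.63 and 8.25 in ESC and 10.5, 64.1 and 37.6 in Fb replicates. Both genes were thus higher in every Fb library in RPM.

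Isodecoder tRNA-Met-CAT-1 took 84.4% ± 15.9 of elongator reads in ESC and 56.9% ± 3.76 in Fb exosomes (SD, n = 3 each). Isodecoder tRNA-Met-CAT-2 took 12.6% ± 14.4 and 41.8% ± 4.27. The groups did not overlap for either share, at an exact two-sided permutation p = 0.1, which became 0.22 once adjusted across the 11 isodecoders compared. The ESC shares of tRNA-Met-CAT-2 were 29.1%, 2.30% and 6.52%, so ESC replicate 1 lay closer to the Fb libraries (43.5%, 37.0% and 45.0%) than to the other ESC libraries. The elongator isodecoders 3 to 7 had at most 15.7 reads in any library, a value of tRNA-Met-CAT-3 in Fb replicate 2.

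In RPM, tRNA-Met-CAT-1 averaged 7.04 ± 1.72 in ESC and 37.4 ± 26.8 in Fb exosomes, tRNA-Met-CAT-2 1.01 ± 1.09 and 26.2 ± 16.01, and tRNA-iMet-CAT-1 2.78 ± 4.05 and 403 ± 483 (SD, n = 3 each). With tRNA genes summed by isodecoder, these were the 3 methionine isodecoders of 11 with enough reads to be tested. Both tRNA-iMet-CAT-1 and tRNA-Met-CAT-2 passed the filter on low counts through their Fb reads, so a direction other than higher in Fb was unlikely to be seen for them. The log2 fold changes (Fb over ESC) were 4.81 (SE 1.38) for tRNA-Met-CAT-1, 7.01 (SE 1.62) for tRNA-Met-CAT-2 and 9.79 (SE 2.37) for tRNA-iMet-CAT-1. In that order they passed at edgeR adjusted p = 0.0471, 0.0202 and 0.0234. In that fit 8.36% of 2977 rows were called higher in Fb exosomes. With library totals alone tRNA-Met-CAT-1 had a log2 fold change of 2.41 and missed the threshold (edgeR adjusted p = 0.121), as it did by limma-trend (limma adjusted p = 0.199). Each of the 3 missed it when any ESC library or Fb replicate 3 was left out (edgeR adjusted p = 0.0610 to 0.218), and tRNA-Met-CAT-1 also without Fb replicate 2 (edgeR adjusted p = 0.102).

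In the fit of single genes, where 8.20% of 2999 rows were called higher in Fb exosomes, only tRNA-Met-CAT-1-2 and tRNA-Met-CAT-2-2 among the 19 genes had enough reads, the latter through its Fb reads. Their log2 fold changes were 4.82 (SE 1.39) and 7.31 (SE 1.84). The second passed and the first did not (edgeR adjusted p = 0.0292 and 0.0509). The second was called without Fb replicate 1 but missed the threshold when any other library was left out (edgeR adjusted p = 0.0607 to 0.136), and the first passed with upper-quartile factors (edgeR adjusted p = 0.0319).

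The mitochondrial methionine tRNA went the other way. mt-Tm had 93.0, 66.0 and 64.9 reads in ESC and 19.9, 5.00 and 6.00 reads in Fb replicates 1 to 3, or 9.40, 5.92 and 6.26 against 2.49, 0.575 and 0.868 RPM. Every ESC library was above every Fb library. In the fit of all RNAs its log2 fold change (Fb over ESC) was -1.34 (SE 0.54), which did not pass (edgeR adjusted p = 0.186), and it was -2.44 with library totals alone (edgeR adjusted p = 0.1995) and negative with every other scaling run. With a minimum count of 50 it was -1.98 and passed (edgeR adjusted p = 0.0446). The median log2 fold change of all rows was then -0.70, against -0.07 with the main filter, so part of that value is a shift of scale. In RPM mt-Tm was thus near the elongator sum in ESC exosomes and well below it in Fb exosomes.

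Among the 22 mitochondrial tRNAs, 9 were higher in every ESC library and 1, mt-Ty, in every Fb library, in RPM. The share of all RNAs higher in every ESC library was not counted, so 9 of 22 cannot be read as more than usual. With library totals alone the median log2 fold change of all rows was -0.83. Near the floor of 3 reads were mt-Ty (1.4, 2 and 2 reads in ESC replicates) and mt-Td (1, 0.667 and 3 in ESC, 0 in each Fb library). The sum of the mitochondrial tRNAs was 150 ± 8.64 RPM in ESC and 38.9 ± 7.19 in Fb exosomes (SD, n = 3 each). In the fit of all RNAs 9 mitochondrial tRNAs were tested and 0 passed (edgeR, with mt-Tm, mt-Tc and mt-Tp at an unadjusted p under 0.05). By DESeq2, mt-Tc and mt-Tp were called higher in Fb exosomes (DESeq2 adjusted p = 0.0128 and 0.00225), and 0 were called by limma-trend. In the edgeR fit the log2 fold changes (Fb over ESC) ran from -1.34 for mt-Tm to 3.01 for mt-Tp. The lower level of other mitochondrial tRNAs in Fb exosomes thus held in RPM and not in that fit. mt-Tq, the tRNA for glutamine and the most abundant of them in ESC libraries, had 72.8 ± 4.62 RPM in ESC and 9.46 ± 2.89 in Fb exosomes, with a log2 fold change of -0.78 in that fit (edgeR adjusted p = 0.742). With library totals alone mt-Tq had -2.95 and passed (edgeR adjusted p = 0.0267), the only one of the 9 to do so on that scaling.

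Among the 24 tRNA sums ordered by reads, with the nearly empty Sup and Und always last, the initiator ranked 22, 20 and 20 in ESC and 16, 8 and 14 in Fb replicates 1 to 3. The elongator ranked 18, 19 and 18 in ESC and 20, 17 and 17 in Fb replicates. The initiator moved up the order in each Fb library while the elongator kept a similar place.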

How the data were processed

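Small RNA of exosomes was sequenced in 6 libraries. Per the labels' protocols, medium was cleared, passed through a 0.22 μm filter and ultracentrifuged, and the pooled libraries were size-selected on a gel at 140 to 300 bp. FastQC, cutadapt and the build GRCm38 are named in the submitters' processing notes. Aligner, counter, strand use and the rule for shared reads: not given in the sources used here. Values deposited by the authors are estimated counts per RNA, of which 82.6% to 92.2% of nonzero values were fractional, so reads of similar genes had been divided by the authors.

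Sums and shares used unrounded estimated counts, with exact permutation tests in Python 3.11.15. Intervals from scipy 1.17.1 used counts rounded after summing, and so treat divided, estimated counts as whole reads. For the models, counts were summed, rounded and fitted over the whole table with edgeR 4.0.16 (R 4.3.3), using its quasi-likelihood test, TMM scaling, no covariate besides group and an adjusted p of 0.05. Rows had to pass filterByExpr at min.count 10 and min.total.count 15. SE is the absolute log2 fold change over the square root of F. Fits were tested on simulated data with a set spread and smaller changes in both directions. The tRNA changes here went one way, so that test does not vouch for the folds given. Alternatives were DESeq2 1.42.0, limma 3.58.1 (limma-trend, prior count 2), other scalings and filters, the replicate number as a block and each library left out. Every isodecoder is named, with genes of a mean of at least 10 reads. Members and lists were chosen with earlier results of these data known.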

Additional observations from a re-analysis of the deposited data

How the results depend on the processing

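Both sums were higher in Fb under each model, scaling, filter and left-out library run. When libraries were left out in turn, the log2 fold change was 6.39 to 10.03 for the initiator and 3.99 to 5.96 for the elongator. The replicate numbers do not pair the libraries, as same-numbered deviations correlated at -0.00438, 0.0857 and -0.0447. With the number as a replicate block the initiator had 7.69 (edgeR adjusted p = 0.0583) and the elongator 4.29 (edgeR adjusted p = 0.254), which had 4.05 by limma-trend (limma adjusted p = 0.140).

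RNAs called numbered 286 (182 higher in Fb, 104 in ESC), and 449 with DESeq2, 180 with limma-trend, 577 with no count filter, 130 with the replicate block and 0 to 494 with a library left out. The 0 arose without ESC replicate 3 or Fb replicate 3, where edgeR gave 542 and 529 rows an unadjusted p under 0.05. Of methionine isodecoders 3 were called, with 6 under no count filter (5 higher in Fb and 1, tRNA-iMet-CAT-3, higher in ESC), 0 under the block and 0 to 3 with a library left out. Of single genes 1 was called, with 2 by DESeq2, upper-quartile factors, TMM without tRNA rows or a minimum count of 50, 9 with no count filter (8 higher in Fb, 1 in ESC), 0 under the block and 0 to 3 with a library left out. With no count filter, 431 of 10712 rows of the isodecoder fit were called higher in Fb and 248 higher in ESC. In the single-gene fit these were 452 and 245 of 10884 rows. Without that filter tRNA-iMet-CAT-3 was called on 44.8 reads in ESC replicate 2, with at most 1.45 in any other library. Isodecoder tRNA-iMet-CAT-2 was called on 24.0 reads in Fb replicate 2, with at most 1.68 elsewhere. The elongator share of tRNA reads turned to a log2 ratio of -1.82 without glycine and glutamate tRNAs and to -0.95 also without valine tRNAs. Other share results kept their direction. Depth limits the initiator in ESC replicate 1 and most isodecoders.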

Other observations

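Other RNAs made by RNA polymerase III or acting on tRNA are given here for context. Rmrp, the RNA of RNase MRP, was at 75.4, 55.5 and 73.6 RPM in ESC and 437, 143 and 202 in Fb replicates 1 to 3, with every Fb library higher. Its log2 fold change (Fb over ESC) was 3.36 (SE 0.96, edgeR adjusted p = 0.0539), just short of the threshold, which it passed with upper-quartile factors (edgeR adjusted p = 0.0485), with a minimum count of 50 (edgeR adjusted p = 0.0312) and by DESeq2 (adjusted p = 4.10e-04). Rpph1, the RNA of RNase P, which trims the 5′ end of precursor tRNAs, overlapped between the groups at 42.1, 43.7 and 50.6 against 52.7, 13.2 and 20.8 RPM (log2 fold change 0.63 with SE 0.71 and edgeR adjusted p = 0.718). Its sign turned to -0.65 with library totals alone and to -0.17 with a minimum count of 50. The median of all rows was -0.83 and -0.70 in these settings. Of the 9 RNAs listed for this context, 7 had a row.

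The other five did not move one way. Rny1, a Y RNA bound by the Ro60 protein, was lower in every Fb library, at 6583, 6314 and 5614 RPM in ESC and 1926, 1623 and 2656 in Fb replicates. Its log2 fold change was 0.31 with TMM factors (edgeR adjusted p = 0.941) and -1.58 with library totals alone (edgeR adjusted p = 0.0135), so its direction depended on the scaling. Rny3 overlapped between the groups (log2 fold change 2.18, edgeR adjusted p = 0.111), as did Rn7sk (2.19, edgeR adjusted p = 0.371). By DESeq2 Rny3 was called higher in Fb exosomes (DESeq2 adjusted p = 0.00513). The near-identical signal recognition particle RNAs went opposite ways, so how their reads were divided is uncertain. Rn7s2 was at 5.84, 31.6 and 6.34 RPM in ESC and 2.07, 0.416 and 0.517 in Fb replicates (log2 fold change -2.74, edgeR adjusted p = 0.0658). Rn7s2 passed with upper-quartile factors, a minimum count of 50 and no count filter (in that order, edgeR adjusted p = 0.0345, 0.0125 and 0.00479). It also passed by DESeq2 (DESeq2 adjusted p = 0.00219) but not by limma-trend (limma adjusted p = 0.144). Rn7s1 was at 25.9, 3.21 and 30.5 in ESC and 45.0, 38.5 and 40.0 in Fb replicates (log2 fold change 2.94, edgeR adjusted p = 0.151, DESeq2 adjusted p = 0.0145).

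The tRNA anticodon groups whose profile over the 6 libraries lay closest to the initiator were Thr-TGT, Leu-TAG and Trp-CCA, with a root mean square difference of 1.17, 1.25 and 1.25 on the log2 scale, where the median of 48 groups was 2.62. Those closest to the elongator were Gln-CTG, Phe-GAA and Ala-AGC, at 0.47, 0.48 and 0.57 against a median of 1.17. The initiator and the elongator differed from each other by 2.20. These values describe the same 6 libraries, which share their depth and groups.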
